A study of Mus musculus with 8 samples.

Results

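Cardiac fibroblast markers are genes whose transcripts are used to recognise the matrix-producing mesenchymal cells of the heart. The 9 genes followed here are Pdgfra, Tcf21, Dcn, Lum, Dpt, Gsn, Dpep1, Scara5 and Cd248, taken by gene symbol from 37982 genes in the authors' deposited table. Every symbol matched 1 gene. Of the 9 genes, 8 had a measured level and 1, Dpep1, is listed at 0 because the authors' software gave up on a locus with too many fragments.

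RNA was sequenced from ventricles of C57BL/6 mice at postnatal day 7, with the atria removed, in 3 genotype groups. The wild-type group has 2 samples, the double mutant (labelled mkmy) 3 and the triple mutant (labelled mkmyn) 3. As known from the study, the double mutant carries altered Mkl2 and Myh7, genes of a serum response factor coactivator and of a myosin heavy chain, and the triple mutant carries altered Nkx2-5, a cardiac homeodomain factor, in addition. The alteration of Mkl2 and Myh7 is thus shared by both mutant groups, and the labels name no Cre driver or transgene. The values are FPKM (fragments per kilobase of transcript, scaled to library size), 1 per gene and group, so levels can be compared between genes, but no value per sample or spread between samples was analysed here and the read depth is unknown. A gene is called where the q-value of the authors' Cuffdiff test was under 0.05.

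Fibroblasts of the ventricle arise mostly from the epicardium and in part from the endocardium, and around birth they build the collagen and proteoglycan network between growing cardiomyocytes. Tcf21 encodes a basic helix-loop-helix transcription factor needed for epicardial cells to become fibroblasts, and Pdgfra encodes the platelet-derived growth factor receptor that marks resident fibroblasts. Dcn, Lum and Dpt encode secreted proteins that bind collagen fibrils. Whole ventricle was sequenced, so fewer fibroblasts and less RNA of a gene per fibroblast cannot be told apart in any value below.

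The stretch of 250 bases before the start site is shown for Pdgfra, Tcf21 and Dpt, the members with a measured level and a single start site in the RefSeq promoter table (GRCm38.p6, a different build from the mm9 used by the authors). Their side in the comparisons does not set these genes apart, since all 8 measured markers stood on 1 side in each of 2 comparisons. Pdgfra, Tcf21 and Dpt were called in none. That table matched 5 of the 9 genes, with no entry for Dcn, Lum, Scara5 and Cd248. Capitals mark the E-box CANNTG, the kind of site that basic helix-loop-helix factors such as the Tcf21 protein bind, and AAGTG, the core of NK homeodomain sites such as those of the Nkx2-5 protein. Both strands were searched, and a match of one motif may overlap a match of the other.
Pdgfra, chr5:75152001-75152250, plus strand: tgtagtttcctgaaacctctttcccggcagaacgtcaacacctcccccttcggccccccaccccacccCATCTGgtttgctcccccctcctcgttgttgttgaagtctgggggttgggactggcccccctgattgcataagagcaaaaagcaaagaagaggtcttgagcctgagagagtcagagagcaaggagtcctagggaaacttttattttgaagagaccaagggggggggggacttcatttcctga
Tcf21, chr10:22820144-22820393, minus strand: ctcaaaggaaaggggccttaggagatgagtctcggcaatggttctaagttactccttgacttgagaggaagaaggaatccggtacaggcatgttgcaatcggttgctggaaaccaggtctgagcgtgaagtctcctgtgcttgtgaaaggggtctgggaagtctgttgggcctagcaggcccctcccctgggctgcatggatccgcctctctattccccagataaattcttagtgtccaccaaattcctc
Dpt, chr1:164796413-164796662, plus strand: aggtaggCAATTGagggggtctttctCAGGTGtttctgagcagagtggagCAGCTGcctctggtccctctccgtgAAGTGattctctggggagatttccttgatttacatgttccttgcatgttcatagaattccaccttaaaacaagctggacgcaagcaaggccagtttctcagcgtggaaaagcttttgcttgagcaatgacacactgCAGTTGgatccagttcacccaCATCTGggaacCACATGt

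The Dpt stretch holds 6 E-box matches and 1 NK core match, the Pdgfra stretch 1 E-box and the Tcf21 stretch neither. Of 32851 promoter windows of the same length, 66.2% hold an E-box match and 40.7% an NK core match, so both motifs are common. These matches describe letters only, and no binding was measured.

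The fibroblast markers were abundant in wild-type ventricle. In the authors' deposited table their FPKM ran from 1.37 for Scara5 to 117 for Dcn, with a median of 48.6 over 8 genes. Dcn stood above 97.4% of the 13695 genes with at least 1 FPKM in wild type and no failed estimate in any group. Pdgfra stood above 70.2% of them. Scara5 lay near the floor of that range, above 5.50%. Of 8 measured markers 7 were thus well expressed in every group, whereas Scara5 was scarce in all of them. A level in whole ventricle does not show which cells made the transcript. Summed over the 8 genes, FPKM came to 409 for wild type, 487 for double-mutant and 404 for triple-mutant ventricle.

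**Figure D1:**
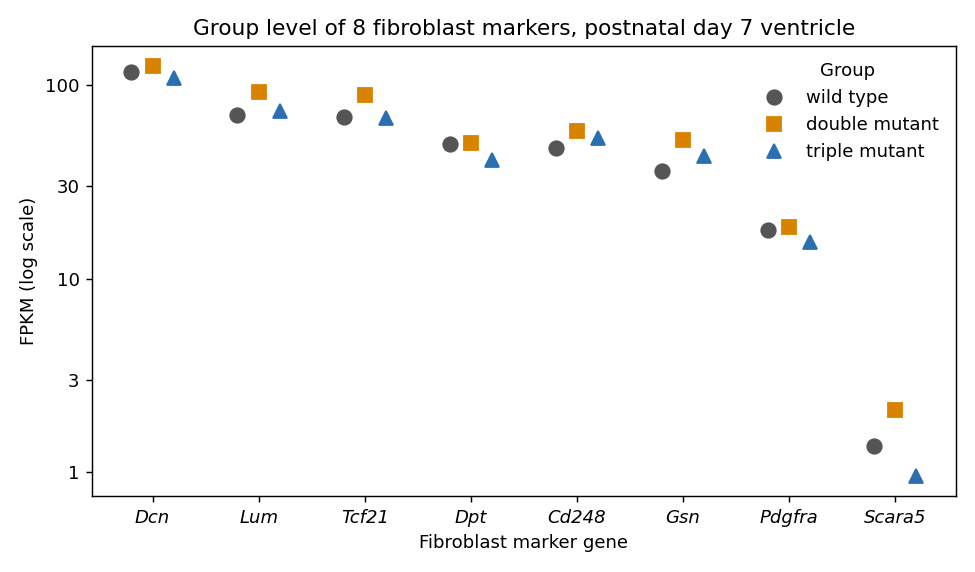
FPKM (log axis) of the 8 measured fibroblast markers, ordered by wild-type level, with 1 point per genotype group and no error bar because the deposited values are 1 per group. The double mutant (squares) has the highest point of each gene, by margins that range from that of Dpt (50.5 against 49.8 in wild type) to that of Scara5 (2.09 against 1.37).

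The markers were spread over the genome, with 3 on chromosome 10. Dcn (ENSMUSG00000019929, mm9 chromosome 10, 96942245 to 96980777) and Lum (ENSMUSG00000036446, chromosome 10, 97028135 to 97035337) are neighbours on the plus strand, 47.4 kb apart, and both encode small leucine-rich proteoglycans. Tcf21 (ENSMUSG00000045680, 22537085 to 22539934) lies elsewhere on chromosome 10. Pdgfra (ENSMUSG00000029231) lies at 75548316 to 75594229 on chromosome 5, Dpt (ENSMUSG00000026574) at 166726863 to 166754397 on chromosome 1 and Gsn (ENSMUSG00000026879) at 35111927 to 35163420 on chromosome 2. Scara5 (ENSMUSG00000022032) lies at 66285240 to 66383663 on chromosome 14 and Cd248 (ENSMUSG00000056481) at 5068078 to 5070637 on chromosome 19. All are annotated as protein-coding genes, and the file lists none of these 8 loci for a further gene.

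Dpep1 (ENSMUSG00000019278), which encodes a membrane dipeptidase that cleaves cysteinyl leukotrienes, gave no level. The file places it in a locus of 4435 kb on chromosome 8, from 122434260 to 126869624, which it lists for 159 other genes as well. The value of 0 is therefore a failed estimate and says nothing of its expression.

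The triple mutant was compared with the double mutant to find genes that change when the Nkx2-5 allele is added. All 8 tested fibroblast markers stood lower in the triple mutant, and 1 of them, Scara5, fell past the threshold. Their median log2 fold change was -0.29, a level 1.22-fold lower, against a median of -0.0011 and an interquartile range of -0.16 to 0.17 over all 12786 genes tested. The scavenger receptor gene Scara5, whose product takes up ferritin, was called in a comparison in which 1.25% of all tested genes were called and 0.547% were called lower. A log2 fold change below 0 was found in 50.2% of all tested genes.

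Scara5 had, per the authors' deposited table, an FPKM of 2.09 for the double and 0.960 for the triple mutant, with 1.37 in wild type between them. The triple mutant was 2.17-fold lower than the double mutant in the authors' deposited table (log2 fold change -1.12, standard error 0.456 from the Cuffdiff statistic, q = 0.00660). Only 0.689% of tested genes had a lower log2 fold change. The call rests on the scarcest of the measured markers, and it ended when a minimum FPKM of 5 was set (reached in either group) and when the statistic was read against a normal distribution.

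Tcf21 was the next lowest and had, per the authors' deposited table, an FPKM of 88.6 for the double and 67.7 for the triple mutant (log2 fold change -0.39, standard error 0.244 from the Cuffdiff statistic, q = 0.146). The triple mutant value lay close to the wild-type value of 68.8. Among the matrix genes, Lum, whose proteoglycan spaces collagen fibrils, stood at 91.8 and 73.3 in the same groups of the authors' deposited table (-0.32 on the log2 scale, q = 0.248). Dpt, which encodes the matrix adaptor dermatopontin, had 50.5 and 40.9 in the authors' deposited table (-0.31, q = 0.306). Dcn, the gene of decorin, a proteoglycan that binds collagen and transforming growth factor beta, had 125 and 109 in the authors' deposited table (-0.19, q = 0.637). None of the matrix members passed the threshold.

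Of the remaining members, Pdgfra had, per the authors' deposited table, 18.6 for the double and 15.4 for the triple mutant (log2 fold change -0.27, q = 0.379). Gsn, which encodes the actin-severing protein gelsolin, had 52.0 and 43.2 in the authors' deposited table (-0.27, q = 0.463). Cd248, the gene of the surface glycoprotein endosialin that is also found on pericytes, had the smallest difference, with 58.0 and 53.6 in the authors' deposited table (-0.11, q = 0.851). For the 7 markers other than Scara5 the standard errors from the statistic lay between 0.234 and 0.264, so each difference was under 2 of its standard errors. Before adjustment, 5 of the 8 markers (Scara5, Tcf21, Lum, Dpt and Pdgfra) had a p-value under 0.05 in the authors' deposited table, where 8.45% of all tested genes did and 4.25% did so with a lower level.

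**Figure D2:**
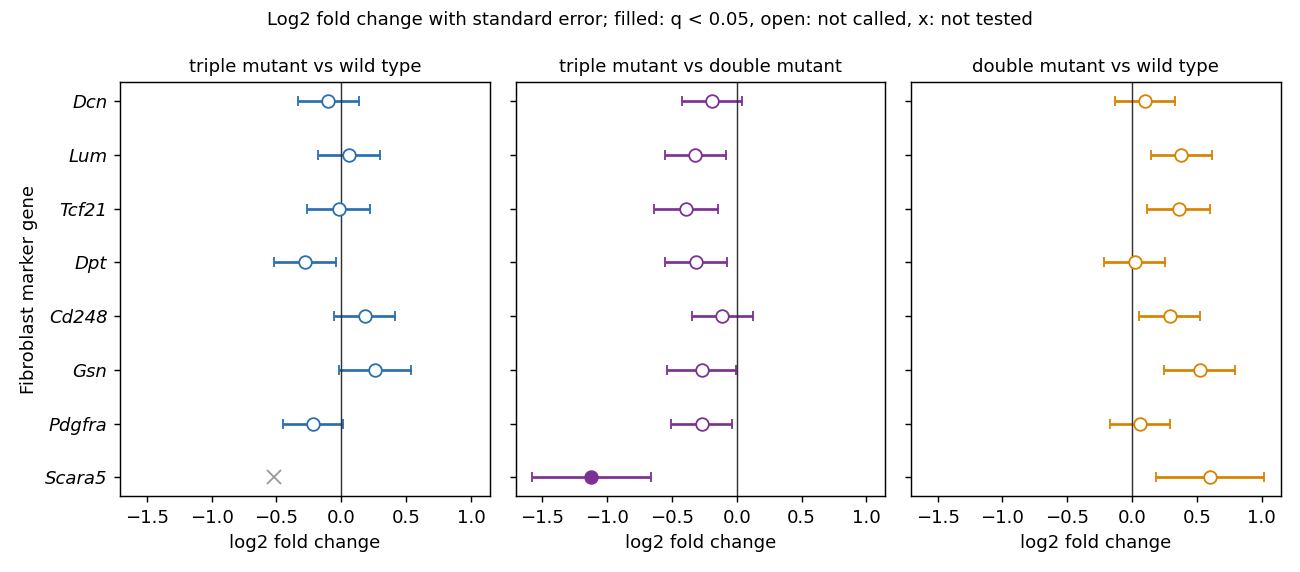
Log2 fold change (x axis) of each fibroblast marker (y axis) in 3 comparisons, with bars of 1 standard error derived from the deposited Cuffdiff statistic. Filled points passed a q-value of 0.05, open points did not, and the cross marks an untested gene. The only filled point is Scara5 in the triple against the double mutant, at -1.12.

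Setting double mutant beside wild type is implied by the 3 groups and shows the markers before the Nkx2-5 allele is added. All 8 tested markers stood higher in the double mutant, none was called, and the median difference was 0.33 on the log2 scale (1.25-fold). Over all 13034 genes tested the median was -0.0030, with an interquartile range of -0.23 to 0.22, and 2.65% of genes were called. A log2 fold change above 0 was found in 49.5% of all tested genes. This comparison and the previous one share the double mutant libraries, so a high value in that group places a marker on both sides, and the counts are not independent of each other.

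The largest differences were those of Scara5 and Gsn. Scara5 had 1.37 for wild type and 2.09 for the double mutant in the authors' deposited table (log2 fold change 0.60, standard error 0.415 from the Cuffdiff statistic, q = 0.201). Gsn had 36.2 and 52.0 in the authors' deposited table (log2 fold change 0.52, standard error 0.273, q = 0.0561), which the authors' own threshold of 0.1 counts as significant. At that threshold 1 of 8 markers was called, against 4.41% of all tested genes. The Gsn call also appeared at q = 0.0383 when q-values were adjusted within this comparison alone.

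Lum had 70.5 for wild type and 91.8 for the double mutant (log2 fold change 0.38, q = 0.117), and Tcf21 had 68.8 and 88.6 (0.36, q = 0.183), in the authors' deposited table. Cd248 had 47.4 and 58.0 in the authors' deposited table (0.29, q = 0.335). Dcn at 117 and 125 (0.10, q = 0.892), Pdgfra at 17.8 and 18.6 (0.06, q = 0.950) and Dpt at 49.8 and 50.5 (0.02, q = 0.983) in the authors' deposited table differed by less than their standard errors, which lay between 0.231 and 0.237. The markers thus divided, by a line drawn after the values were seen, into 5 with differences of 0.29 or more and 3 with differences of 0.10 or less. Dcn and Lum, neighbours on chromosome 10 and members of 1 protein family, lay on different sides of it. Neither was called, and the difference between them was not tested. The same 5 genes had an unadjusted p-value under 0.05, where 16.3% of all tested genes did and 9.46% did so with a higher level.

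The triple mutant was also compared with wild type, to find genes with altered levels in the disease model. Here the fibroblast markers stood near wild type, with 3 of 7 tested members higher, 4 lower and none called. Their median log2 fold change was -0.02 and their range -0.28 to 0.26, against a median of -0.0026 and an interquartile range of -0.19 to 0.20 over 12986 tested genes, of which 1.52% were called. Dpt, listed in the authors' deposited table at 49.8 for wild type and 40.9 for the triple mutant (q = 0.352), was the lowest and Gsn, at 36.2 and 43.2 (q = 0.542), the highest.

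Pdgfra had, per the authors' deposited table, 17.8 for wild type and 15.4 for the triple mutant (log2 fold change -0.22, q = 0.548), and Dcn had 117 and 109 (-0.10, q = 0.891). Cd248 had 47.4 and 53.6 in the authors' deposited table (0.18, q = 0.687) and Lum had 70.5 and 73.3 (0.06, q = 0.955). Per the authors' deposited table, Tcf21 differed little, at 68.8 and 67.7 (-0.02, q = 0.981). Scara5 was not tested by the authors in this comparison. Its listed levels were 1.37 and 0.960, a ratio without a test. Before adjustment only Dpt had a p-value under 0.05, and 12.1% of all tested genes did.

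**Figure D3:**
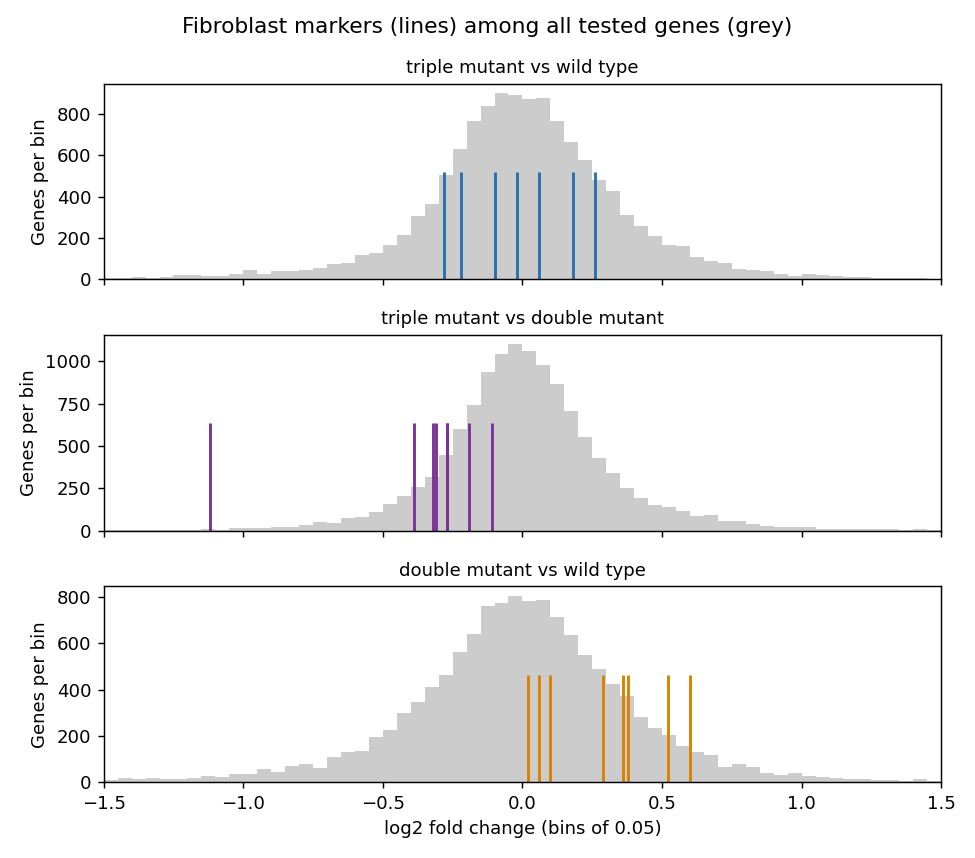
Histograms of log2 fold change (bins of 0.05) for all tested genes in grey, with 1 vertical line per tested fibroblast marker in each of 3 comparisons. The lines lie on both sides of 0 in the upper panel (triple mutant, wild type as reference), all below 0 in the middle panel (triple mutant, double mutant as reference) and all above 0 in the lower panel (double mutant, wild type as reference).

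In the order of levels the double mutant came first for each of the 8 markers. The triple mutant came second for Lum, Gsn and Cd248, and wild type second for Pdgfra, Tcf21, Dcn, Dpt and Scara5. No tested pair of neighbouring groups in this order differed past the threshold. Scara5 passed between the highest and the lowest group, and its pair of wild type and triple mutant was not tested.

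A wider list of 35 further genes of fibroblast identity, among them collagens and matrix-associated proteins, leaned to the same sides where the double mutant was compared. Of 32 tested, 30 were lower in the triple than in the double mutant (median -0.22 on the log2 scale, none called). In the double mutant against wild type 23 were higher and 9 lower (median 0.12, 1 called), with Fstl1 among the lower. That call was Col6a1, a collagen VI chain gene, at 43.4 for wild type, 67.8 for double-mutant and 50.2 for triple-mutant ventricle in the authors' deposited table (1.56-fold higher in the double mutant, q = 0.00660). Against wild type, 23 of 32 were lower in the triple mutant, with a median of -0.12 and none called. The most abundant were Fstl1 (222, 193 and 184) and Col1a1 (183, 218 and 163, in wild type, double and triple mutant of the authors' deposited table), both in loci that the file lists for further genes.

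Genes of adventitial fibroblasts, the cells around vessels, had a median of -0.26 in the triple against the double mutant, with 13 of 17 tested lower. The surface antigen gene Ly6c1, which endothelial cells also express, was the single call, listed in the authors' deposited table at 62.5 for the double and 40.4 for the triple mutant (1.55-fold lower, q = 0.0114). Mfap5, a microfibril protein gene, stood at 55.7, 87.1 and 55.5 in wild type, double and triple mutant of the authors' deposited table (q = 0.262 in both comparisons with the double mutant). Cd34 stood at 82.1, 93.1 and 84.8. In the double mutant against wild type this list had a median of 0.14 with 13 of 17 higher, and in the triple mutant against wild type a median of -0.10 with 11 of 17 lower, none called in either.

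Genes of activated fibroblasts and myofibroblasts leaned away from the markers in the double mutant against wild type and were divided in the triple against the double mutant. In the double mutant against wild type 11 of 16 tested were lower (median -0.16), with calls for the matrix gene Tnc (15.7 and 9.24, q = 0.00660, in a locus shared with further genes) and the collagen VIII gene Col8a1 (6.93 and 4.29, q = 0.00660) in the authors' deposited table. In the triple against the double mutant 9 of 17 were lower (median -0.08), and Acta2, the smooth muscle actin that also marks vessel walls, rose from 169 to 254 (q = 0.00660, per the authors' deposited table). The secreted matrix protein gene Spp1, which macrophages also express, rose in the same comparison of the authors' deposited table, at low levels of 0.295 and 3.77 (q = 0.00660). Against wild type 13 of 17 were lower in the triple mutant (median -0.22), and Spp1 rose from 0.501 (q = 0.00660 in the authors' deposited table). Fn1, in a shared locus, stood at 76.2, 66.4 and 63.0 in wild type, double and triple mutant of the authors' deposited table, none of its comparisons called. Postn, the gene of periostin, stood at 255 in wild type of the authors' deposited table, and its estimate failed in both mutant groups, so it was not compared.

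**Figure D4:**
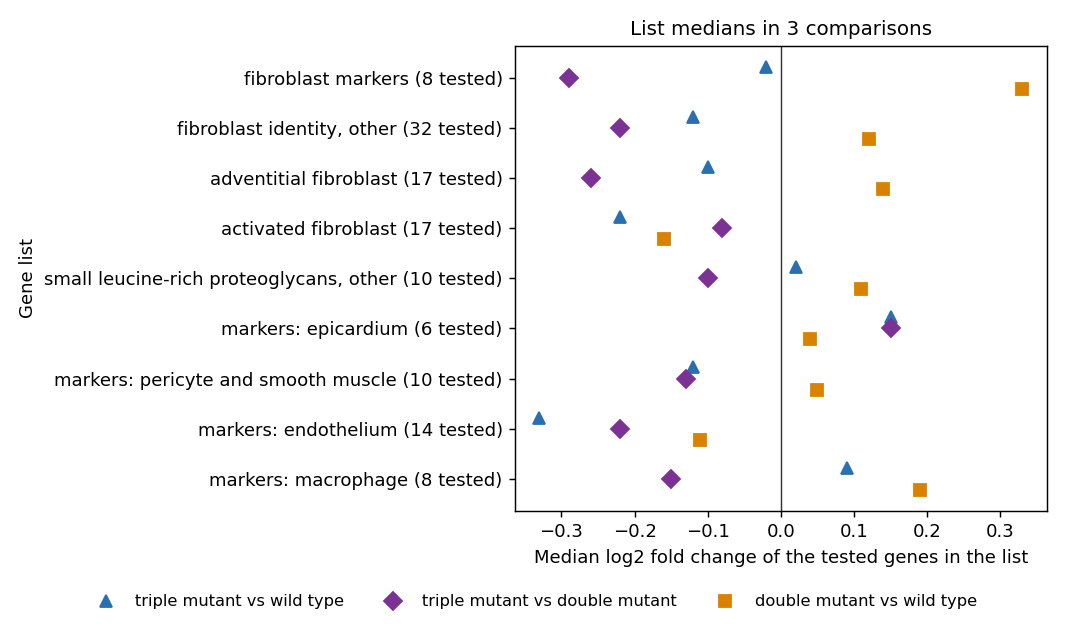
Median log2 fold change (x axis) of the tested genes of 9 lists (y axis) in 3 comparisons, with the number tested in the triple against the double mutant in parentheses. The fibroblast markers have medians of -0.02, -0.29 and 0.33, and the activated fibroblast list is below 0 in each comparison (-0.22, -0.08 and -0.16).

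Around Tcf21, a list of transcription factors of fibroblasts and epicardium had 1 call in the triple against the double mutant. In the authors' deposited table Klf4 fell from 58.5 to 42.4 (q = 0.0418), and 10 of 15 tested factors were lower with a median of -0.21. In the double mutant against wild type, Twist1, a mesenchymal basic helix-loop-helix factor, rose from 2.86 to 5.38 (q = 0.0496) and Osr1 fell from 5.47 to 2.99 (q = 0.0214, per the authors' deposited table), and 11 of 15 were higher with a median of 0.13. The most abundant, Tbx20 (109, 88.1 and 95.0) and Gata4 (80.6, 75.9 and 93.1), are cardiac factors that cardiomyocytes express too, and neither was called in any comparison of the authors' deposited table. In the triple mutant against wild type none of 14 was called (median -0.09).

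For Pdgfra, the other receptor and the ligands of the pathway were read from the same table. None of 5 tested genes was called in any comparison, with medians of -0.25 (triple mutant, wild type as reference), -0.19 (triple mutant, double mutant as reference) and -0.05 (double mutant, wild type as reference). Pdgfrb, the receptor of pericytes, stood at 27.6, 29.4 and 25.5 in wild type, double and triple mutant of the authors' deposited table, above Pdgfra in each group on the FPKM scale. The ligand gene Pdgfa stood at 13.4, 15.0 and 16.5 and Pdgfb, which endothelial cells make, at 18.6, 17.9 and 13.8 in the authors' deposited table.

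Other small leucine-rich proteoglycan genes, the family of Dcn and Lum, had medians of -0.10 for triple against double mutant (7 of 10 tested lower, none called) and 0.11 for double mutant against wild type (6 of 9 higher, none called). For triple mutant against wild type the median was 0.02, with 5 of 10 higher and 1 called. That gene was Fmod, encoding fibromodulin, which rose from 2.98 to 4.93 (q = 0.0398, per the authors' deposited table). Bgn, encoding biglycan, exceeded Dcn on the FPKM scale at 301, 318 and 267 in wild type, double and triple mutant of the authors' deposited table. Aspn stood at 124, 154 and 135, in a locus shared with further genes. Kera and Epyc, family members known from cornea and cartilage, stood under 1 FPKM in every group.

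Relatives of the remaining members had 3 calls, all lower in the triple mutant. Thbd, encoding thrombomodulin, and Clec14a are endothelial genes of the protein family of Cd248, and Tnxb encodes tenascin X, a matrix glycoprotein listed beside the matrix members without being of their families. Thbd stood at 27.9, 30.8 and 19.6 in wild type, double and triple mutant of the authors' deposited table (q = 0.0271 for wild type and 0.00660 for the double mutant as the reference). Tnxb, whose locus is listed for a further gene, was at 18.4, 17.3 and 12.4 in the authors' deposited table (q = 0.00660 and 0.0184). Clec14a stood at 28.0, 25.4 and 20.0 (q = 0.0342 and 0.206) in the authors' deposited table. Of 11 tested relatives 9 were lower in each comparison with the triple mutant, with a median of -0.35 in both, and those comparisons share the triple mutant libraries. In the double mutant against wild type none of 10 was called (median -0.04). The most abundant relatives, Cd93 (127, 121 and 112) and Tcf15 (62.3, 74.9 and 53.5), were not called.

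Markers of other cell types moved beside the fibroblast markers in part. Endothelial markers were lower in the triple than in the double mutant in 13 of 14 genes (median -0.22, 1 called, Aqp1 at 95.5 and 68.1, q = 0.0342 in the authors' deposited table), and their summed FPKM came to 1007 for wild type, 971 for double-mutant and 835 for triple-mutant ventricle. Unlike the fibroblast markers they were also lower in the double mutant than in wild type, in 10 of 14 genes (median -0.11, none called), and in the triple mutant than in wild type, in 13 of 14 (median -0.33, none called). That difference between lists was not tested. The most abundant, Cdh5 (204, 218 and 188) and Pecam1 (172, 159 and 144, in a shared locus), were called in no comparison.

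Pericyte and smooth muscle markers summed to 1041, 1097 and 1080 FPKM in wild type, double and triple mutant, with Cnn1 under 1 in every group. In the triple against the double mutant 7 of 10 were lower (median -0.13), the channel gene Kcnj8 fell from 23.1 to 15.4 (q = 0.0114, per the authors' deposited table), and Acta2 rose. The list had medians of 0.05 for double mutant and -0.12 for triple mutant against wild type, with none called. Its most abundant genes were Des (449, 485 and 464, in a shared locus and also a cardiomyocyte gene) and Rgs5 (233, 272 and 213). Macrophage markers summed to 54.4, 58.9 and 54.7, with Fcgr1 and Emr1 under 1, C1qa at 12.1, 13.4 and 11.1 and Lyz2 at 8.53, 11.7 and 9.89. None of 8 tested was called, and the medians were 0.19 (double mutant, wild type as reference), -0.15 (triple mutant, double mutant as reference) and 0.09 (triple mutant, wild type as reference).

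Epicardial markers summed to 41.4, 45.2 and 44.5 FPKM, with Upk1b, Krt8 and Muc16 under 1 in every group. In the double mutant against wild type Aldh1a2, the enzyme that makes retinoic acid in epicardium, rose from 12.6 to 19.8 (q = 0.00660) and Krt18 fell from 5.68 to 2.86 (q = 0.0150, per the authors' deposited table). The 5 genes tested there had a median of 0.04, and the 6 tested in each comparison with the triple mutant a median of 0.15 with none called. Wt1 stood at 14.0, 14.3 and 12.5. Of the Schwann cell markers, S100b was under 1 FPKM in every group. Erythroid markers summed to 375, 418 and 398, led by Hbb-b1 (171, 215 and 212) and Hba-a1 (139, 134 and 119), with none called and medians between -0.03 and 0.12. Of 16 cardiomyocyte markers 13 had a failed estimate in at least 1 group, so the muscle fraction could not be read from that list. Of the 3 tested, the stress-responsive Ankrd1 and the natriuretic peptide gene Nppa (in a shared locus) rose in the triple against the double mutant, 1.49-fold and 1.64-fold in the authors' deposited table (q = 0.0271 and 0.00660). Against wild type, Ankrd1 rose 1.55-fold in the triple mutant (q = 0.0150) and Nppa fell 1.82-fold in the double mutant (q = 0.00660), again in the authors' deposited table. The part of these cell types in the fibroblast values was not tested.

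Y-linked genes, like the fibroblast markers, were highest in the double mutant. Per the authors' deposited table, the Y-linked helicase gene Ddx3y had 4.82 for wild type and 14.0 for the double mutant, with the triple mutant 2.08-fold above wild type, and Uty had 5.61, 15.2 and 10.5. Both were called in the double mutant against wild type (q = 0.00660 in the authors' deposited table), and Ddx3y also in the triple mutant against wild type (q = 0.00660). The 4 tested Y-linked genes had a median log2 fold change of 1.53 for double mutant and 1.05 for triple mutant against wild type. In the triple against the double mutant all 4 were lower and none was called. Xist, the RNA expressed from the inactive X chromosome of females, rose 72.7-fold in that comparison, from 1.21 in the double to 88.2 in the triple mutant of the authors' deposited table (log2 fold change 6.18, q = 0.00660, in a locus shared with a further gene). Its wild-type estimate failed. All 8 fibroblast markers were lower in the same comparison. The labels do not give the sex of the mice, so the sex makeup of the groups and the genotype cannot be told apart in the fibroblast values.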

How the data were processed

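Total RNA from mouse ventricle was made into stranded libraries, per the labels' protocols, for 8 samples in 3 genotype groups. The submitters' processing notes name the mm9 build, the aligner STAR 2.5.2, the base caller CASAVA 1.8, and Cuffdiff 2.2.1 with Cufflinks 2.2.1. Which annotation and which normalization they used is not given in the sources used here. Per gene and group the authors deposited 1 FPKM and, for each comparison, a log2 fold change without pseudocount, a test score (the Cuffdiff statistic), a p-value and a q-value. The lowest p-value is 5e-05 and the lowest q-value 0.00660. The q-values match those of Benjamini and Hochberg's method applied to all tested rows of the 3 comparisons at once (largest difference 5.3e-07). FPKM keeps no depth, so no interval from depth was computed. FPKM summed to 331702 for wild type, 334141 for the double and 322951 for the triple mutant. Nothing says that samples came from separate animals, so p-values may measure technical spread only.

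From these values Python 3.11.15 (pandas 2.3.3, scipy 1.17.1) read the 9 members, added 1 to each start to give coordinates counted from 1, and computed counts, medians and a standard error (log2 fold change over statistic). Genes with a failed estimate in any group (709 of 37982) were left out of sums and rankings of levels. A test between groups without a failed estimate was kept, as for Xist. Levels printed for Xist and Postn come from the groups that gave one. No new test across samples was possible. The members and the 15 other lists were chosen with earlier results of these data known, so no pattern here is independent support. Named genes are all members, per list the 2 genes of highest FPKM and up to 4 called genes per comparison, and 5 genes nearest the members' median pattern. Outside this rule the text also names Pdgfa, some genes under 1 FPKM in every group, and Postn, whose estimate failed in both mutant groups. Alternatives were another adjustment of q, the authors' threshold of 0.1, FPKM minimums of 1 and 5, a pseudocount of 1, centring on all tested genes and leaving out shared loci. Simulated data were used only to test calls made from a normal p-value. They do not test the calls reported here, which rest on the deposited p-values. Of the Schwann cell list, 1 result is not reported here.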

Additional observations from a re-analysis of the deposited data

How the results depend on the processing

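The count of fibroblast markers called changed in 4 of 15 alternative settings. For the triple against the double mutant it went from 1 to 0 with an FPKM minimum of 5 in either group, since Scara5 lies under it, and to 0 when q-values were made from a two-sided normal p of the deposited statistic, an alternative chosen after seeing the data. For the double mutant against wild type it went from 0 to 1, Gsn, with q adjusted within the comparison and to 1 at the authors' threshold of 0.1. With an FPKM minimum of 5 the members' median went from -0.29 to -0.27 for the triple against the double mutant and from 0.33 to 0.29 for the double mutant against wild type, and with a pseudocount of 1 to -0.28 and 0.32. An FPKM minimum of 1 and leaving out shared loci removed no tested member, so they say nothing of stability, and none of the settings run on single members could turn a direction beyond a shift of all genes. The pseudocount moved Scara5 from -1.12 to -0.66 for the triple against the double mutant and from 0.60 to 0.38 for the double mutant against wild type. No paired analysis was possible because the file gives 1 value per group, and for the same reason no sample could be left out. Depth could not be assessed, and the precision of Scara5 is limited by its low level.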

Other observations

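The deposited p-values are smaller than the deposited statistic would give under a normal distribution. P-value and statistic were compared over 34565 tested rows. Rows with the largest and the smallest p-values, such as that of Scara5 below, were left out. The normal deviate that matches the p-value was a median of 1.76 times the statistic, with an interquartile range of 1.74 to 1.86. For Scara5 in the triple against the double mutant the deposited statistic of -2.46 has a two-sided normal p of 0.0140, where the authors' deposited table gives 5e-05. Read this way, 4 genes of 12786 would pass a q-value of 0.05 in that comparison, 5 of 12986 for triple mutant against wild type and 9 of 13034 for double mutant against wild type, with 0 fibroblast markers among them, and 1 marker, Scara5, has an unadjusted normal p under 0.05. Standard errors printed for the markers come from the statistic, so they are wider than the p-values imply. How the authors' software made p-values from the statistic was not checked.

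The median pair of log2 ratios to wild type over the 7 markers tested in all comparisons was 0.29 for the double and -0.02 for the triple mutant. Among 8529 other genes with an FPKM of at least 5 in each group, the 5 nearest by Euclidean distance over the 3 groups were Usf2 (distance 0.00173), Pink1 (0.00541), Srp9 (0.0109), Bcar3 (0.0112) and Nipal3 (0.0152), of which Usf2, Bcar3 and Nipal3 lie in shared loci. In the authors' deposited table Usf2 stood at 39.3, 48.0 and 38.7 and Pink1 at 64.2, 78.3 and 63.3 in wild type, double and triple mutant. With 266 genes within a distance of 0.1, a likeness over 3 groups is shared by many genes and singles out none.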
